A study of Mus musculus with 20 samples.

Results

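*Slc5a2*, the gene mutated in Sweet Pee (SP) mice, lies on chromosome 7, and its neighbours are described here. The members are all genes of the count files whose GENCODE start on mm10 falls on chromosome 7 between 118265657 and 138265657, that is within 10 Mb of the start of *Slc5a2* at 128265657. This window held 333 genes, and 11 of them, *Slc5a2* among them, were set aside by the rule, which left 322 members of 43430 genes in the files. Membership used position and a list of names to set aside, and no measured value. The rule also names *Pycard* and *Itpripl2*, and the members were chosen with earlier results of these data known. Start here means the lowest coordinate, which is the 3′ end of a gene on the minus strand, and all distances are taken from it. Of the 322 members, 226 are protein coding, 56 had 0 counts in every library and 189 (178 of them protein coding) were abundant enough to be tested. None of the 133 members that were not tested exceeded 0.542 CPM (counts scaled to the size of the library) in any library.

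Poly(A) RNA of kidney cortex was sequenced from 20 male C3H/HeJ mice that had been 10 weeks old when a high-fat diet (HFD) began. All groups shared the diet, 8 weeks alone and then 8 weeks during which the mice were injected i.p. 3 times a week with DMSO (placebo) or with MAT2Ai at 10 mg/kg, an inhibitor of MAT2A, the enzyme that makes the methyl donor S-adenosylmethionine. The 4 groups of 5 libraries were WT placebo, WT MAT2Ai, SP placebo and SP MAT2Ai. SP mice are homozygous for a missense mutation of *Slc5a2*, which encodes the glucose cotransporter SGLT2 of the proximal tubule. The allele is carried by every cell of the animal, so that a difference from WT is not limited to the tubule, and no group on a normal diet is part of these libraries.

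Genes that lie close together on a chromosome are usually inherited together, so a mouse line bred for 1 mutation also carries the DNA around it. Neighbouring genes can in addition share regulatory DNA or overlap in the transcribed sequence. The comparison of SP with WT therefore asked whether genes around *Slc5a2* differed in RNA level with genotype, by how much and at what distance. The window holds genes of unrelated function. *Pycard* encodes ASC, the adaptor through which inflammasome sensors recruit caspase-1, the protease that matures interleukin-1 beta. A cluster of *Acsm* genes encodes mitochondrial enzymes that activate medium-chain fatty acids, and *Itgam*, *Itgax* and *Itgal* encode integrin chains of leukocytes.

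The upstream DNA of the 4 members that passed the test in all libraries together at a mean log2 CPM of at least 0 is shown, as the promoter DNA next to the genes that the results turn on. Each sequence is the 250 bases before the RefSeq start on the gene's own strand, from build GRCm38.p6, which is the C57BL/6J reference and not the C3H/HeJ genome of these mice. All 4 genes lie on the minus strand, *Itpripl2* at chr7:118491976-118492225, *Pycard* at chr7:127993868-127994117, *BC017158* at chr7:128298132-128298381 and *Oat* at chr7:132576399-132576648. Capitals mark matches, on either strand, to the TATA box searched as TATAAA, the CCAAT box by its name, the GC box searched as GGGCGG or the AP-1 site searched as TGACTCA, and matches to different motifs do not overlap in these sequences.
Itpripl2: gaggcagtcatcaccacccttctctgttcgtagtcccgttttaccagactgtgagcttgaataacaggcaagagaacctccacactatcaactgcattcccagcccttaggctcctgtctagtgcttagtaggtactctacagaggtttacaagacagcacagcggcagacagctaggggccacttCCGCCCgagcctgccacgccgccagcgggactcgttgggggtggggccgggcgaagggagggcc
Pycard: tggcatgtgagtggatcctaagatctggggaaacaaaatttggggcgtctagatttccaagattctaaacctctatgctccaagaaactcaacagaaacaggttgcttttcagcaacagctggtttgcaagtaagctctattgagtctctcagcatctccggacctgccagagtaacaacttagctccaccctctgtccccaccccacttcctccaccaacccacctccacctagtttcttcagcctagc
BC017158: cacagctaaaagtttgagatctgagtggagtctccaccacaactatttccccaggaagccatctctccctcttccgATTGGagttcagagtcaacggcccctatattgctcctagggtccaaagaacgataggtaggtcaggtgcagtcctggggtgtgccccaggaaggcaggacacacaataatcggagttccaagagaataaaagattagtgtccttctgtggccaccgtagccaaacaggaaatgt
Oat: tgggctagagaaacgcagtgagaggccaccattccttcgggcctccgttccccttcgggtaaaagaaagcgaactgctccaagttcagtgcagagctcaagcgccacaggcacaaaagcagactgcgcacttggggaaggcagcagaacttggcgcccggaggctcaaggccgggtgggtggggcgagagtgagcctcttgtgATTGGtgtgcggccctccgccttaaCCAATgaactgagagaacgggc
A GC box stands before *Itpripl2*, 1 CCAAT box before *BC017158* and 2 before *Oat*. None of the 4 letter strings occurs in the 250 bases before *Pycard*. Among all 32851 promoters of the RefSeq table, 12.4% held TATAAA, 33.8% CCAAT, 32.7% GGGCGG and 4.46% TGACTCA in the same length. RefSeq promoters were found for 160 of the 189 tested members, and of their 206 promoters 6.8% held TATAAA, 38.3% CCAAT, 49.5% GGGCGG and 4.85% TGACTCA. These shares describe letters and not sites in use.

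Libraries held 53296824 to 79339949 gene counts. The defining markers of the labelled tissue were present, as 7 proximal tubule markers summed to 10069 to 16634 CPM in each of the 20 libraries. The mutated gene itself was lower in SP, where *Slc5a2* stood at 40.2 to 85.9 CPM in 8 of 10 libraries against 229 to 518 CPM in WT. In the libraries labelled SP placebo 1 and SP placebo 2 it stood at 241 and 282 CPM, inside the WT range, so that these libraries go against their label in this gene. The same 2 libraries were the lowest of the 10 SP libraries for *Pycard* (2.46 and 3.41 CPM) and the highest for *Itpripl2* (7.63 and 7.78 CPM) and *D7Ertd443e* (0.707 and 0.777 CPM), in each case on the side of WT. For *Oat* (66.1 and 69.9 CPM), *BC017158* (32.6 and 31.2 CPM) and *1500002F19Rik* (0.150 and 0.107 CPM) these libraries lay within the range of the other SP libraries. They were kept under their label. The counts, medians and called members that rest on them are given with and without them, and that fit tested 16551 genes and 192 members. Where these 2 libraries lay nearest to WT, leaving them out had to enlarge the difference, so the larger value is no test of it. In the WT MAT2Ai group, 4 tubular injury markers summed to 1975 CPM in replicate 2 against 24.4 to 107 CPM in the other 19 libraries.

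Tested members lay unevenly around *Slc5a2*, with 146 before it and 43 after it, and 86 of them within the 2 Mb before it. Their mean level ran from 0.194 to 7720 CPM with a median of 14.6 CPM. *Acsm2* was the most abundant member, followed by *Acsm3* at 751, *Acsm1* at 488, *Prss8* at 339 and *Sephs2* at 337 CPM, before any correction for gene length. *Prss8* encodes a serine protease that activates the epithelial sodium channel, and *Sephs2* an enzyme that makes selenophosphate for selenoproteins. At the low end, 28 tested members had a mean under 1 CPM.

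Under placebo, no member passed the threshold of an adjusted p under 0.05 in the edgeR quasi-likelihood test, and none of the 16152 tested genes did (0%). At an unadjusted p under 0.05 there were 9 members (4.76%), among them *Itpripl2*, *AI467606*, *Pycard*, *BC017158*, *Chst15*, *Oat*, *1500002F19Rik* and *D7Ertd443e*, against 3.75% of all tested genes. The alternative tools, DESeq2, the likelihood ratio test of edgeR and voom of limma, each called 1 member, *Pycard*, where they called 7, 7 and 4 genes in all. With the libraries labelled SP placebo 1 and 2 left out, the quasi-likelihood test again called no member and 1 gene in all.

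Under MAT2Ai, 5 members (2.65% of those tested) passed, against 298 genes or 1.84% of all genes tested. *Pycard* was higher in SP, and *Itpripl2*, *Nupr1*, *Aqp8* and *1500002F19Rik* were lower. That is 0.529% of the tested members higher and 2.12% lower, where 0.644% and 1.20% of all genes were. The share was 2.16% of the 970 tested genes on chromosome 7 outside the window, 1.30% of the 154 genes at 10 to 20 Mb and 1.81% of the 14884 genes on other chromosomes. The calls depended on single libraries, as no member passed without SP MAT2Ai replicate 2, 3 or 5, when 1, 0 and 0 genes in all did.

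Averaged over both treatments, so that all 20 libraries entered, 6 members (3.17%) passed, against 215 genes or 1.33% of all genes, and 40 members (21.2%) had an unadjusted p under 0.05, against 19.6%. *Pycard* and *BC017158* were higher in SP (1.06% of the members, 0.607% of all genes), and *Itpripl2*, *Oat*, *1500002F19Rik* and *D7Ertd443e* were lower (2.12% against 0.724%). On chromosome 7 outside the window 2.16% of tested genes passed, at 10 to 20 Mb 2.60% and on other chromosomes 1.24%. Leaving out SP placebo replicates 1 and 2, 5 of these 6 members passed and *BC017158* did not. Without SP placebo replicate 4 only *Pycard* and *Oat* passed, when 20 genes in all did.

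**Figure D1:**
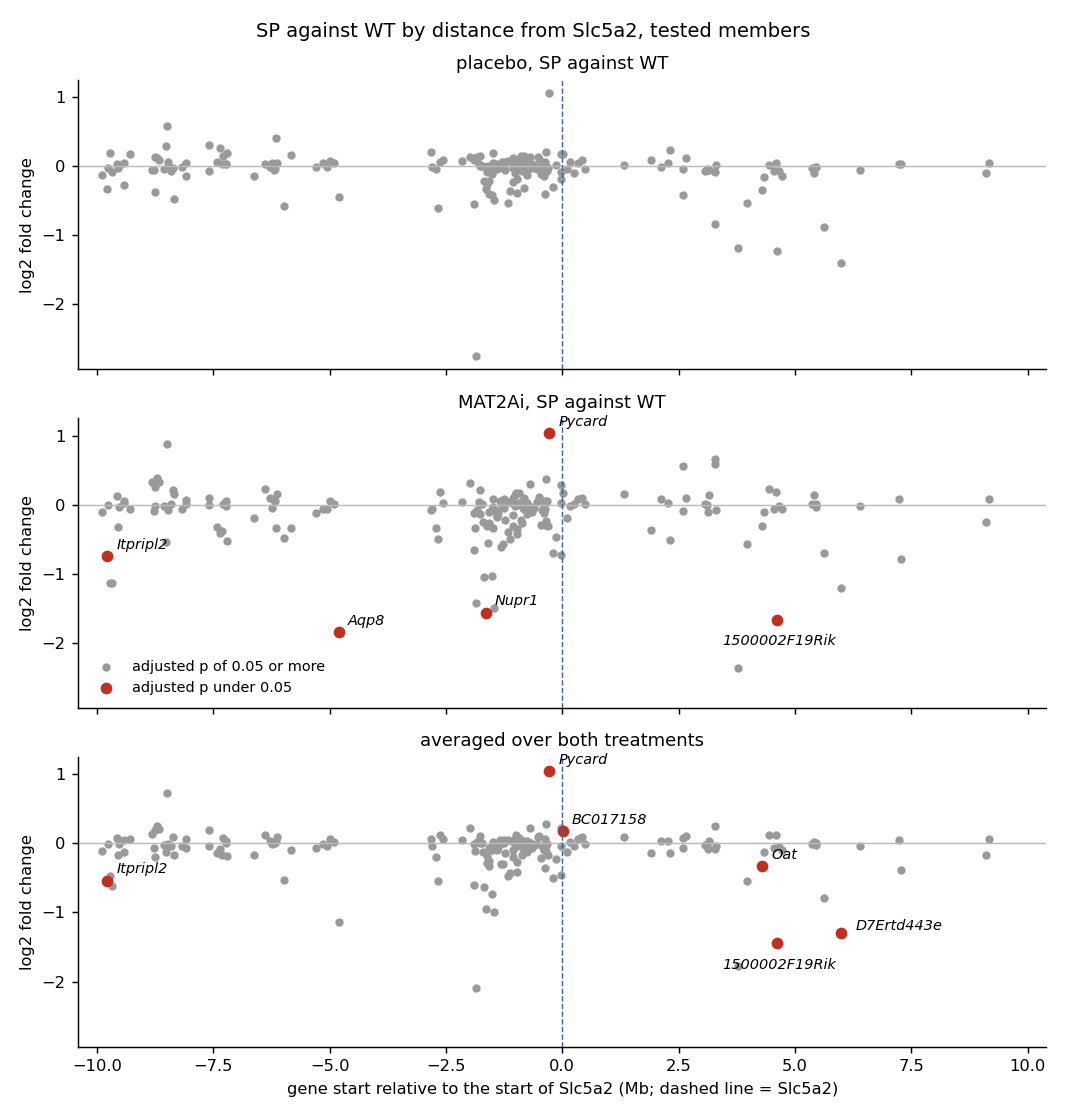
Each point is 1 of the 189 tested members, placed by the distance of its start from that of *Slc5a2* (Mb, x axis) and by its log2 fold change of SP against WT (y axis), under placebo, under MAT2Ai and averaged over both. Red points passed an adjusted p of 0.05 in the edgeR quasi-likelihood test. None did under placebo, and the named points under MAT2Ai and in the average lie from 9.78 Mb before to 6 Mb after *Slc5a2*.

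Calls and smaller differences were also counted by distance from *Slc5a2*. In the averaged comparison 2 of 95 tested members passed within 2 Mb and 4 of 94 at 2 to 10 Mb, where the counts under MAT2Ai were 2 and 3. At an unadjusted p under 0.05 in the average there were 25 members (26.3%) within 2 Mb and 15 (16%) at 2 to 10 Mb, against 19.6% of all genes. Under MAT2Ai these shares were 26.3% and 23.4%, against 21.8% of all genes, and under placebo 4.21% and 5.32%, against 3.75%. Of the 154 tested genes at 10 to 20 Mb, outside the window, 26% had such a p in the average, 29.9% under MAT2Ai and 9.09% under placebo. The share within 2 Mb was thus not above that at 10 to 20 Mb under either treatment, and near it in the average. In the average the DESeq2 Wald test placed 9 of its 16 member calls within 2 Mb, where 95 of the 189 tested members lie, and it called 885 genes in all. The difference between the distance classes was not tested. The median size of the log2 fold change was 0.09 within 2 Mb and 0.08 at 2 to 10 Mb in the average, beside 0.10 over all tested genes. Under MAT2Ai these medians were 0.14, 0.10 and 0.15, and under placebo 0.08, 0.07 and 0.08. With SP placebo 1 and 2 left out, the averaged medians were 0.09 within 2 Mb and 0.10 at 2 to 10 Mb, beside 0.11 over all genes, and 23 (24.0%) and 18 (18.8%) members had an unadjusted p under 0.05. Among members at 1 Mb or less, 1 of 40 before and 1 of 7 after *Slc5a2* passed in the average, *Pycard* and *BC017158*.

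The nearest genes were not those with the largest differences. *BC017158* lies on the opposite strand, with its lowest coordinate, its 3′ end, 0.00572 Mb after the start of *Slc5a2*. Its 3′ part shares 1052 bases with the *Slc5a2* gene. The next 2 tested members after it were *Rgs10* at 0.108 Mb, with an averaged log2 fold change of -0.12 ± 0.12 (SE), and *Tial1* at 0.174 Mb with 0.03 ± 0.05. *Rgs10* encodes a regulator of G-protein signalling and *Tial1* an RNA-binding protein. Before *Slc5a2* came *Tgfb1i1* at 0.0188 Mb with -0.46 ± 0.15, *Armc5* at 0.0283 Mb with -0.03 ± 0.05 and *9130023H24Rik* at 0.0312 Mb with 0.23 ± 0.10. None of these 5 passed the test in any genotype comparison. *Tgfb1i1*, which encodes a focal adhesion protein, came closest under MAT2Ai at -0.73 ± 0.21 (edgeR adjusted p = 0.0602), where its 5 SP libraries, at 1.81 to 3.14 CPM, did not overlap the 5 WT libraries at 3.69 to 4.10 CPM.

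*Pycard* lies 0.276 Mb before *Slc5a2* (chromosome 7, 127989708 to 127993867, minus strand) and overlaps no other annotated gene. It stood at 1.90, 2.92, 1.36, 1.70 and 1.14 CPM in WT placebo and at 2.46, 3.41, 4.14, 5.19 and 3.57 CPM in SP placebo. Under MAT2Ai it stood at 1.74, 2.33, 2.09, 1.76 and 2.33 CPM in WT and at 3.69, 5.16, 3.85, 4.40 and 3.97 CPM in SP. The MAT2Ai groups did not overlap, and the placebo groups overlapped only because WT replicate 2, at 2.92 CPM, lay above the library labelled SP placebo 1. The means were 1.80 ± 0.69 (SD, n = 5) in WT placebo, 3.76 ± 1.0 in SP placebo, 2.05 ± 0.29 in WT MAT2Ai and 4.21 ± 0.59 in SP MAT2Ai, from 73 to 356 reads a library. *Pycard* rose in SP in the average, by a log2 fold change of 1.05 ± 0.15 (SE, edgeR adjusted p = 0.00701), and under MAT2Ai, by 1.04 ± 0.22 (0.0311). Under placebo the value was 1.06 ± 0.22, at an edgeR adjusted p of 0.399 over all genes.

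The libraries labelled SP placebo 1 and 2 held the lowest *Pycard* of all 10 SP libraries. Without them the log2 fold change was 1.25 under placebo (edgeR adjusted p = 0.126) and 1.15 in the average (0.00389). Leaving out the lowest SP values had to enlarge this difference, so these values are no test of it. The averaged call held with each of the 20 libraries left out in turn, at adjusted p values of 0.000703 to 0.0218 in edgeR. The MAT2Ai call held in 16 of these 20 fits and was lost without SP MAT2Ai replicate 1, 2, 3 or 5 (adjusted p = 0.0526, 0.0768, 0.0628 and 0.0878 in edgeR) at log2 fold changes of 0.96 to 1.09. The difference between treatments was -0.02 ± 0.30.

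*Itpripl2*, near the far end of the window at 9.78 Mb before *Slc5a2*, is a gene of the inositol trisphosphate receptor-interacting protein family by name. Under placebo it stood at 6.45, 9.18, 8.66, 7.75 and 9.91 CPM in WT and at 7.63, 7.78, 5.73, 5.35 and 6.75 CPM in SP, and these groups overlapped. In the MAT2Ai groups it stood at 7.66, 7.53, 8.92, 9.75 and 7.97 CPM in WT and at 6.37, 4.73, 4.20, 5.66 and 4.00 CPM in SP, with no overlap. It fell in SP under MAT2Ai, at a log2 fold change of -0.74 ± 0.14 (edgeR adjusted p = 0.0273), and in the average, at -0.54 ± 0.10 (0.0202). The value under placebo was -0.34 ± 0.14 (unadjusted p = 0.0296, edgeR model) and the difference between treatments -0.41 ± 0.20, which did not pass. In the libraries labelled SP placebo 1 and 2 *Itpripl2* was the highest of all SP libraries, so leaving them out had to enlarge the fall. Without them the values were -0.50 under placebo and -0.62 in the average (edgeR adjusted p = 0.0202), which is no test of it. The averaged call was lost without SP placebo replicate 4 (-0.51, adjusted p = 0.0519 in edgeR), and the MAT2Ai call without SP MAT2Ai replicate 2, 3 or 5 (adjusted p = 0.0688, 0.0645 and 0.0901 in edgeR).

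*Oat*, at 4.29 Mb after *Slc5a2*, encodes ornithine aminotransferase, a mitochondrial enzyme that links ornithine to proline and glutamate. It stood at 87.8, 80.5, 82.6, 89.0 and 76.7 CPM in WT placebo and at 66.1, 69.9, 64.1, 57.6 and 71.3 CPM in SP placebo, where the groups did not overlap. Under MAT2Ai it stood at 86.6, 88.6, 104, 71.8 and 85.7 CPM in WT and at 76.4, 62.9, 68.9, 73.6 and 70.9 CPM in SP, and WT replicate 4 lay inside the SP range. *Oat* fell in SP in the average at a log2 fold change of -0.32 ± 0.06 (edgeR adjusted p = 0.0202), with nearly the same value in both treatments, -0.34 ± 0.08 under placebo and -0.31 ± 0.08 under MAT2Ai (adjusted p = 0.0524 in edgeR). The averaged call held without each single library, at edgeR adjusted p values of 0.00436 to 0.0458. Without the libraries labelled SP placebo 1 and 2, which lay within the other SP libraries for this gene, it was -0.34 (edgeR adjusted p = 0.0249). *Oat* lies inside a long *Fgfr2* gene model of GENCODE, as do *Chst15*, *Hmx2* and *1500002F19Rik*.

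*BC017158*, called *Rusf1* in RefSeq, showed the smallest difference of the members that passed. It stood at 28.7, 25.5, 30.2, 27.1 and 29.2 CPM in WT placebo and at 32.6, 31.2, 30.5, 33.6 and 30.7 CPM in SP placebo. In the MAT2Ai groups it stood at 29.7, 29.3, 28.7, 29.7 and 31.4 CPM in WT and at 32.2, 34.7, 35.4, 33.1 and 32.6 CPM in SP, and the groups overlapped in neither treatment. It rose in SP in the average, by 0.17 ± 0.04 (edgeR adjusted p = 0.0308), with 0.17 ± 0.05 under each treatment. Without the libraries labelled SP placebo 1 and 2 the value was again 0.17 (edgeR adjusted p = 0.0590), and the call was also lost without WT placebo replicate 2 or 4, SP placebo replicate 3 or 4, or SP MAT2Ai replicate 2, 3 or 5 (adjusted p = 0.0537 to 0.0764 in edgeR). In its overlap with *Slc5a2*, reads of the 2 genes can be told apart only by strand, and the strand setting of the counting is not stated. *Slc5a2* moved the other way.

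Both other members that fell in the average were rare and outside the rule by which genes were named, so they were chosen after their values were seen. *D7Ertd443e*, at 6 Mb after *Slc5a2*, stood at 0.569, 1.80, 1.16, 1.18 and 1.03 CPM in WT placebo and at 0.707, 0.777, 0.234, 0.291 and 0.167 CPM in SP placebo. Under MAT2Ai it stood at 0.780, 0.637, 0.964, 0.817 and 0.748 CPM in WT and at 0.244, 0.643, 0.150, 0.373 and 0.289 CPM in SP. Its averaged log2 fold change was -1.30 ± 0.29 (edgeR adjusted p = 0.0360). The libraries labelled SP placebo 1 and 2 were the highest of the 10 SP libraries, as *Pycard* was lowest there. Without them the log2 fold change was -2.32 under placebo (edgeR adjusted p = 0.126) and -1.76 in the average (0.0140). Leaving out the highest SP values had to enlarge the fall, so these values are no test of it. The call was lost in 9 of 20 fits that left out 1 library, at log2 fold changes of -1.30 to -1.19 and edgeR adjusted p values of 0.0529 to 0.0841: without WT placebo replicate 2, 3 or 4, WT MAT2Ai replicate 3, SP placebo replicate 3 or 4, or SP MAT2Ai replicate 1, 3 or 5.

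*1500002F19Rik*, an RNA model at 4.61 Mb that overlaps *Abraxas2*, *Fgfr2* and *Zranb1*, rested on 3 to 46 reads a library. It stood at 0.246 to 0.469 CPM in WT placebo, 0.102 to 0.250 in SP placebo, 0.312 to 0.800 in WT MAT2Ai and 0.0488 to 0.322 in SP MAT2Ai. It fell under MAT2Ai, at -1.67 ± 0.39 (edgeR adjusted p = 0.0420), and in the average, at -1.45 ± 0.27 (0.0202). With those 2 SP placebo libraries left out the average was -1.36 (edgeR adjusted p = 0.0423), and the MAT2Ai call, whose value stayed at -1.67, was lost at 0.0586. It was also lost without WT placebo replicate 3, 4 or 5, SP placebo replicate 2 or 3, or SP MAT2Ai replicate 1, 2, 3 or 5 (adjusted p = 0.0510 to 0.116 in edgeR). The averaged call was lost without SP placebo replicate 4 (adjusted p = 0.0519 in edgeR).

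*Nupr1* and *Aqp8* passed under MAT2Ai only, and the test of the difference between treatments passed for neither. *Nupr1*, which encodes a nuclear protein induced by cell stress, stood at 4.62, 15.3, 25.9, 11.9 and 5.81 CPM in WT MAT2Ai and at 3.33, 6.60, 5.38, 3.54 and 2.66 CPM in SP MAT2Ai. In WT placebo it ran from 4.39 to 6.37 CPM and in SP placebo from 3.37 to 6.33 CPM. It fell in SP under MAT2Ai, at -1.56 ± 0.36 (edgeR adjusted p = 0.0420), against -0.34 ± 0.36 under placebo and a difference of -1.22 ± 0.50 between them (0.842). WT MAT2Ai replicates 2, 3 and 4 were the 3 highest of their group, and without them the log2 fold change was -0.28 (edgeR adjusted p = 0.714). Leaving out the highest WT values had to shrink this difference, so that value is no test of it. Only replicates 1 and 5 of WT MAT2Ai stay in every fit without those 3 libraries. WT MAT2Ai replicate 2 also had the highest injury marker sum and replicate 3 the second highest, at 107 CPM. Replicate 4 had 59.6 CPM, below replicate 1 at 79.9 CPM. The part of injury in the *Nupr1* result was not tested.

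*Aqp8*, a water channel gene 4.80 Mb before *Slc5a2*, stood at 0.369, 0.419, 0.144, 0.675 and 0.244 CPM in WT MAT2Ai and at 0.114, 0.102, 0.0167, 0.103 and 0.167 CPM in SP MAT2Ai, from 1 to 38 reads. It fell under MAT2Ai, at -1.84 ± 0.45 (edgeR adjusted p = 0.0432), and the groups overlapped. Its value under placebo was -0.44 ± 0.42 and the difference between treatments -1.40 ± 0.61. Leaving out the libraries labelled SP placebo 1 and 2, the calls of *Aqp8* and *Nupr1* were lost at edgeR adjusted p values of 0.0599 and 0.0586. Those libraries are in neither MAT2Ai group, but they enter through the filter, the scaling, the shared estimate of the spread and the adjustment over all tested genes. With 1 library left out, the call held in 7 of 20 fits for *Aqp8* (log2 fold changes of -2.09 to -1.52) and in 9 of 20 for *Nupr1* (-1.77 to -1.12). Both calls were lost without WT placebo replicate 3, 4 or 5, WT MAT2Ai replicate 2, SP placebo replicate 2 or 3, or SP MAT2Ai replicate 1, 2, 3 or 5. That of *Aqp8* was also lost without WT MAT2Ai replicate 4, SP placebo replicate 1 or SP MAT2Ai replicate 4, and that of *Nupr1* without WT MAT2Ai replicate 3.

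**Figure D2:**
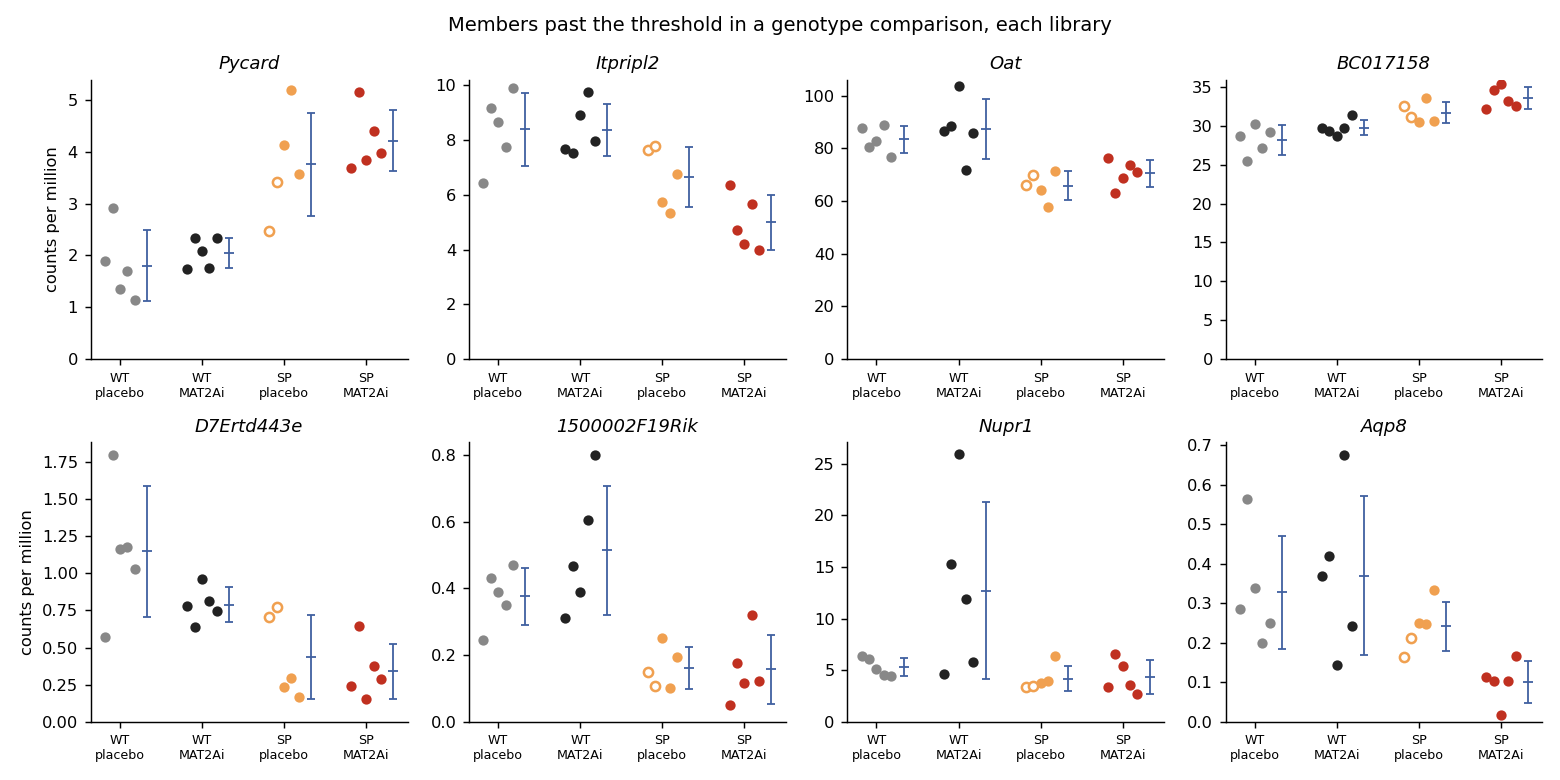
CPM (y axis, from 0) of the 8 members that passed the test in at least 1 genotype comparison, 1 point a library, in the 4 groups of 5. Open points are the libraries labelled SP placebo 1 and 2, and blue bars give the mean ± SD. *Pycard* and *BC017158* lie higher in SP under both treatments, *Oat*, *D7Ertd443e* and *1500002F19Rik* lower, and the high *Nupr1* values are WT MAT2Ai replicates 2, 3 and 4.

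The placebo and MAT2Ai comparisons share no library, so each member had its difference measured in separate mice. Across the 189 tested members the 2 log2 fold changes had a Pearson r of 0.57 and a Spearman rho of 0.33, and 113 (59.8%) had the same sign. Over all 16152 genes r was 0.24, rho 0.35 and the same-sign share 63.1%, so that the members lay above all genes by r and below them by rank and by sign. With SP placebo 1 and 2 left out, the members had r = 0.54, rho = 0.43 and 65.6% of the same sign, against 0.26, 0.36 and 63.8% over all genes, and lay above all genes by each measure. These are correlations across genes, which are not independent replicates, and both comparisons come from 1 model. Without the 8 members that passed a genotype comparison, the other 181 had r = 0.48, rho = 0.26 and 105 of the same sign. No member passed the test of the difference between treatments (0% of all genes called), and 10 members (5.29%) had an unadjusted p under 0.05 there, against 5.59% of all genes. The same 3 tools also called no member for this difference.

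**Figure D3:**
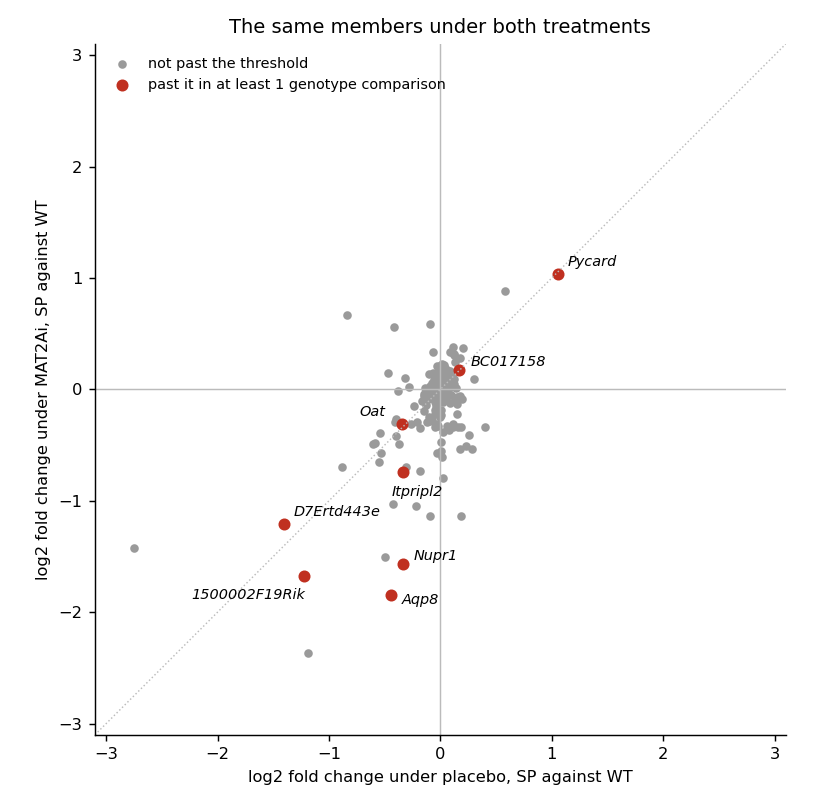
Log2 fold change of SP against WT under placebo (x axis) and under MAT2Ai (y axis) for the 189 tested members, with the line of equal values dotted. Red points passed the edgeR test in at least 1 genotype comparison. *Pycard*, *Oat*, *BC017158* and *D7Ertd443e* lie near the line, whereas *Nupr1* and *Aqp8* lie far below 0 on the MAT2Ai axis and near -0.4 on the placebo axis.

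Groups that did not overlap were counted as well. Under placebo 3 members (1.59%) had all 5 SP libraries on 1 side of all 5 WT libraries, *BC017158* higher and *AI467606* and *Oat* lower, against 1.19% of all genes (0.656% higher, 0.539% lower). With the 3 other SP placebo libraries alone there were 10 (5.29%), against 7.16% of all genes. Under MAT2Ai there were 8 (4.23%), *Cog7*, *Tufm*, *Pycard* and *BC017158* higher and *Itpripl2*, *Tgfb1i1*, *Chst15* and *9430038I01Rik* lower, against 3.4% of all genes (1.71% higher, 1.68% lower). *Cog7* encodes a subunit of a Golgi tethering complex, and its log2 fold change under MAT2Ai was 0.22 ± 0.06 (edgeR adjusted p = 0.0520). *Tufm*, the mitochondrial elongation factor Tu gene, had 0.22 ± 0.07 (adjusted p = 0.0840 in edgeR). No member separated all 10 SP from all 10 WT libraries, as 6 genes of the whole table (0.0371%) did. Without SP placebo 1 and 2 *Pycard* alone among the members did (0.529%, against 0.229% of all genes). Those libraries held its lowest SP values, so leaving them out could only favour a separation.

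Members were also read by function, in 8 lists that hold 120 of the 189 tested members. In the average 37.6% of all 189 tested members had positive values, against 47.2% of all tested genes. These shares were 47.1% and 50% under placebo and 40.7% and 46.6% under MAT2Ai. Of 13 tested leukocyte and inflammasome genes, *Pycard* alone passed in the average, and it was the only one of the 13 with a positive value there. The other 12 had negative values, none passed, and 8 of them had an unadjusted p under 0.05, where 21.2% of all tested members and 19.6% of all genes did. The median log2 fold change of the 13 was -0.43, beside -0.01 over all tested genes, with -0.37 under placebo (10 of 13 negative) and -0.49 under MAT2Ai (12 of 13 negative). With SP placebo 1 and 2 left out, the median was -0.53 in the average and -0.52 under placebo, each with 12 of 13 negative. In these bulk samples, fewer cells of a type and less RNA per cell cannot be told apart.

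In the average, *Apobr*, a receptor gene of macrophages, had -0.63 ± 0.20 (-0.78 without SP placebo 1 and 2, edgeR adjusted p = 0.0759), *Lat*, a T-cell signalling adaptor gene, -0.60 ± 0.26, and *Il21r*, the interleukin-21 receptor gene, -0.55 ± 0.23. *Apobr* under MAT2Ai stood at 1.23, 1.86, 0.763, 0.728 and 2.04 CPM in WT and at 0.829, 0.643, 0.583, 0.643 and 0.502 CPM in SP, with a log2 fold change of -1.05 ± 0.28 (adjusted p = 0.0551 in edgeR), and -1.35 (0.0340) without WT MAT2Ai replicates 2, 3 and 4. That fit dropped 1.86, 0.763 and 0.728 CPM and kept 1.23 and 2.04 CPM in WT MAT2Ai. The integrin genes had averaged values of -0.50 ± 0.26 (*Itgam*), -0.41 ± 0.17 (*Itgal*) and -0.23 ± 0.15 (*Itgax*). *Il4ra*, the most abundant gene of the list at a mean of 20.3 CPM, had -0.19 ± 0.10.

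Macrophage and lymphocyte markers elsewhere in the genome were low in the same SP MAT2Ai libraries, as were endothelial ones, whereas neutrophil markers were not. Macrophage markers (7 of 7 with negative values in the average, *C1qb* and *C1qc* past the threshold) summed to 70.4 to 83.2 CPM in WT placebo, 61.1 to 98.1 in WT MAT2Ai, 52.3 to 97.7 in SP placebo and 31.4 to 66.0 in SP MAT2Ai. Lymphocyte markers (5 of 5 tested with negative values, none past the threshold) summed to 6.69 to 15.4, 6.04 to 16.8, 7.0 to 21.4 and 2.97 to 6.24 CPM in the same order. Neutrophil markers (3 of 3 negative, none past the threshold) summed to 3.74 to 11.5, 1.4 to 15.3, 1.01 to 8.84 and 2.26 to 13.4 CPM. Endothelial markers (4 of 4 negative, none past the threshold, median -0.75 under MAT2Ai) summed to 82.6 to 165.5, 61.3 to 175, 70.3 to 124 and 56.8 to 80.9 CPM. In SP placebo replicates 1 to 5 the macrophage sums were 60.2, 56.1, 58.0, 52.3 and 97.7 CPM. Only replicate 5 was not below all WT placebo libraries. Podocyte and thick limb markers (3 of 3) and tubular injury markers (4 of 4) also had negative values in the average, none past the threshold. No marker of these lists was at 0 in every library. Their part in the values of *Apobr* and the other leukocyte members was not tested. *Pycard* moved in the opposite direction from these markers.

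**Figure D4:**
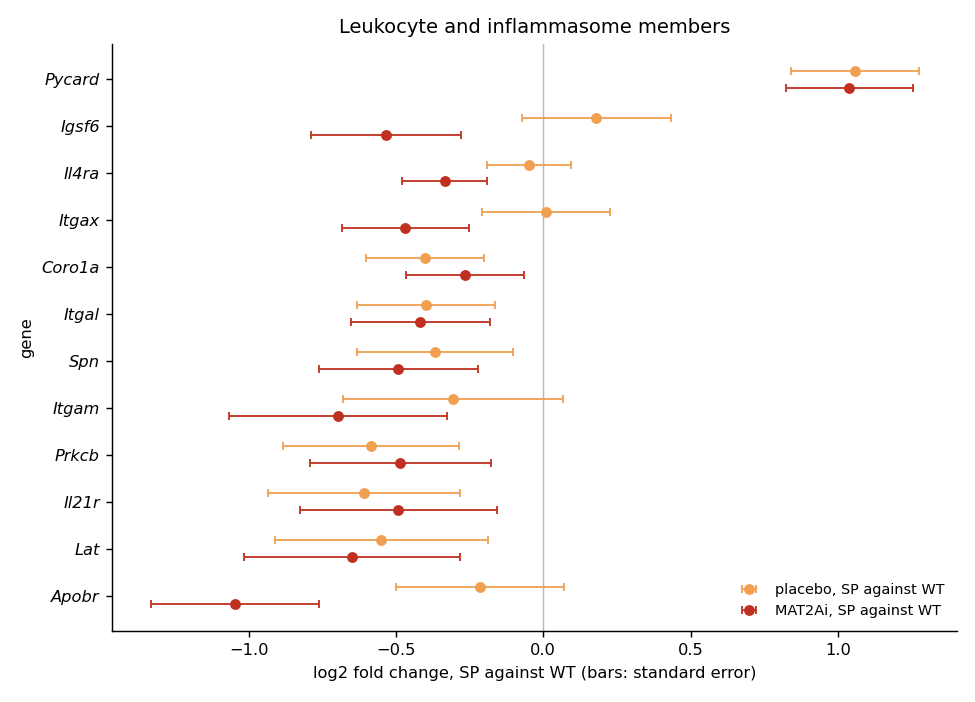
Log2 fold change of SP against WT (x axis) for 12 of the 13 tested leukocyte and inflammasome members (y axis), under placebo (orange) and MAT2Ai (red), with bars of 1 standard error. *Pycard* lies near 1 in both treatments, and 9 of these 12 genes under placebo and 11 of 12 under MAT2Ai have values below 0.

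Of 12 tested mitochondrial genes, 9 had positive values in the average and 3 negative ones, and only *Oat* passed, downward. The median was 0.07 (0.08 without SP placebo 1 and 2), and 0.18 under MAT2Ai, where 10 of 12 were positive. The proximal tubule markers moved with them, 7 of 7 positive in the average at a median of 0.17 with *Slc22a6*, an organic anion transporter gene, past the threshold, and at a median of 0.20 under MAT2Ai. Their part in the values of the mitochondrial members was not tested. *Acsm2* stood at 6746 to 8760 CPM in WT placebo, 7989 to 8872 in SP placebo, 3575 to 7656 in WT MAT2Ai and 7416 to 9219 in SP MAT2Ai, an averaged log2 fold change of 0.25 ± 0.10 (edgeR adjusted p = 0.188). *Acsm1* had 0.21 ± 0.09 and *Acsm5* 0.19 ± 0.13. *Acsm3* had the largest value of the cluster, 0.73 ± 0.21 (adjusted p = 0.0762 in edgeR; 0.81 and 0.0848 without SP placebo 1 and 2), at 410, 393, 775, 729 and 778 CPM in WT placebo and 742, 799, 991, 1034 and 1056 CPM in SP placebo. In the MAT2Ai groups it stood at 365, 205, 552, 951 and 499 CPM in WT and at 1340, 801, 884, 674 and 1038 CPM in SP. The groups overlapped in both treatments. The lowest WT values of *Acsm1*, *Acsm2* and *Acsm3* were those of WT MAT2Ai replicate 2, the library with the high injury marker sum. Without WT MAT2Ai replicates 2, 3 and 4 the averaged value was 0.86 for *Acsm3* (edgeR adjusted p = 0.0192) and 0.15 for *Acsm2* (0.230). For *Acsm3* that fit dropped the lowest WT MAT2Ai value, 205 CPM, but also the highest, 552 and 951 CPM, and kept 365 and 499 CPM. It called 461 genes in all in the average, against 215 in the main model.

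Of 17 tested transport and membrane traffic genes, none passed in the average and *Aqp8* passed under MAT2Ai. *Prss8*, 0.340 Mb before *Slc5a2*, stood at 334, 322, 317, 316 and 320 CPM in WT placebo and at 329, 363, 376, 394 and 387 CPM in SP placebo. Under MAT2Ai it stood at 323, 191, 342, 289 and 299 CPM in WT and at 368, 392, 335, 391 and 384 CPM in SP. Its averaged log2 fold change was 0.29 ± 0.07 (edgeR adjusted p = 0.0574), 0.32 (0.0660) without SP placebo 1 and 2, and 0.23 (0.0150) without WT MAT2Ai replicates 2, 3 and 4. The last of these fits called 461 genes in all, against 215 in the main model. Of 17 kinase, phosphatase and signalling genes, *Itpripl2* passed in the average and 11 of 17 had negative values, among them *Mapk3*, the gene of the kinase ERK1, at -0.10 ± 0.04. Over all tested members 118 of 189 had negative values, a similar share.

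Of 13 metabolic enzyme genes outside mitochondria, none passed in the average and *Nupr1*, which the list holds although it encodes no enzyme, passed under MAT2Ai. *Chst15*, which encodes a chondroitin sulfate sulfotransferase, had -0.55 ± 0.14 in the average (edgeR adjusted p = 0.0574; -0.61 and 0.0688 without SP placebo 1 and 2) and similar values in both treatments, -0.53 ± 0.20 and -0.57 ± 0.20. *Gdpd3*, a lysophospholipase D gene, had -0.73 ± 0.28 with WT MAT2Ai replicates 2, 3 and 4 and -0.10 without them, and these were the highest of their group for this gene. Of 15 transcription factor and zinc finger genes, 22 chromatin and RNA genes and 11 cytoskeleton, cilium and matrix genes, none passed in any genotype comparison. Their median log2 fold changes in the average were -0.07, -0.02 and -0.16, and -0.02, -0.02 and -0.15 without SP placebo 1 and 2.

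No member passed the test of MAT2Ai against placebo in either genotype. In WT, 0 of 189 members and 0 of 16152 genes (0%) passed between MAT2Ai and placebo, and 32 members (16.9%) had an unadjusted p under 0.05, against 15.7% of all genes. In SP, no member and 3 genes (0.0186%) passed, and 10 members (5.29%) had an unadjusted p under 0.05, against 5.92%. Without SP placebo 1 and 2 these were 0 members and 0 genes, and 6 members (3.12%) against 3.55%. DESeq2 and edgeR's likelihood ratio test each called 2 members in WT, among them *Nupr1*, where they called 201 and 178 genes in all. In SP they called no member, and limma-voom called none in either genotype. The quasi-likelihood log2 fold change of *Nupr1* in WT was 1.26 ± 0.36, and -0.03 without WT MAT2Ai replicates 2, 3 and 4. Those were the highest of their group for this gene, so leaving them out had to lower the value. *Pycard* had 0.19 ± 0.22 in WT and 0.17 ± 0.21 in SP, and *Itpripl2* -0.00 ± 0.14 and -0.41 ± 0.14. Of the 22 chromatin and RNA genes, 20 had positive values in WT with a median of 0.12, and 18 had them in SP with a median of 0.05, and none passed. Over all tested members 57.7% were positive in WT and 56.6% in SP, against 52.6% and 50.6% of all genes. The WT comparison uses the same WT MAT2Ai libraries as the genotype comparison under MAT2Ai.

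At the edges of the window, the last tested members inside were *Syt17*, 9.88 Mb before *Slc5a2* at an averaged log2 fold change of -0.12, and *Glrx3*, 9.17 Mb after it at 0.06. The first tested genes outside were *Smg1*, 10.1 Mb before it at -0.08, and *Mapk1ip1*, 10.6 Mb after it at -0.03.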

How the data were processed

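RNA from kidney cortex of 20 mice was sequenced as poly(A), directional libraries. The authors aligned the reads to mm10 with STAR and counted them per gene with htseq on Ensembl 78, and deposited unscaled counts, 1 table a library. 1 label speaks of single nuclei, whereas the methods describe total RNA. The strand setting of the counting is not given in the sources used here. The 5 summary lines were left out (no feature 3.87% to 5.49%, ambiguous 0.702% to 0.794%). Coordinates and symbols came from GENCODE release 21 (GRCm38), which held 42462 of the 43430 genes.

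A quasi-likelihood model (edgeR 4.0.16, R 4.3.3) with 1 coefficient a group was fitted to all 20 libraries after filterByExpr and TMM scaling. Calls took a Benjamini-Hochberg adjusted p under 0.05 over 16152 genes, and adjusted p values in the text are from this model. Libraries are separate mice. The replicate numbers did not pair libraries. Alternatives were DESeq2 1.42.0 (test and size factors), the edgeR likelihood ratio test, limma-voom (limma 3.58.1), no filter, the replicate block, members without overlaps and libraries left out, 29 in all. The script was tested on simulated data.

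Named genes were *Pycard* and *Itpripl2*, the 10 largest rises and falls among called members at a mean log2 CPM of at least 0 other than gene models, the 3 nearest tested members on each side of *Slc5a2*, the 5 most abundant, up to 3 per list by p in the average, and the edge genes. Other members named were chosen after their values were seen. The members and lists were chosen with earlier results of these data known. Overlapping genes, and antisense partners without strand, cannot be told apart. Some members counted in the text are not reported here by name.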

Additional observations from a re-analysis of the deposited data

Results flagged for a closer look

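In 8 of 152 groups of 5 libraries checked among the named genes, 1 library stood far from the other 4 by Dixon's test, where chance gives about 1 in 20. In WT placebo, *Sephs2* was highest in replicate 1 at 410 CPM (next 321), *9130023H24Rik* in replicate 2 at 8.91 CPM (next 6.60), and *Cpxm2* lowest in replicate 3 at 0.113 CPM (next 0.283). In WT MAT2Ai, *Cpxm2* was highest in replicate 3 at 1.08 CPM (next 0.284), as was *Adam12* at 0.806 CPM (next 0.522). *Chst15* was highest in WT MAT2Ai replicate 4 at 9.77 CPM (next 5.07), where *Smg1*, just outside the window, was lowest at 28.9 CPM (next 35.2). In SP placebo, *Nupr1* was highest in replicate 5 at 6.33 CPM (next 3.99).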

How the results depend on the processing

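Of 2940 values of named genes under alternatives, 2788 kept their side of the threshold, 75 crossed it upward and 77 downward, and no called value changed sign. The main counts of members were 0 under placebo, 5 under MAT2Ai and 6 in the average (2 of them within 2 Mb). The DESeq2 Wald test called 1, 16 and 16 (9 within 2 Mb), the edgeR likelihood ratio test 1, 10 and 13 (6), and limma-voom 1, 5 and 17 (7). DESeq2 and the likelihood ratio test each called 2 members for MAT2Ai in WT, where they called 201 and 178 genes in all. Over all genes the 3 genotype counts were 0, 298 and 215 in the main model, 7, 1203 and 885 by DESeq2, 7, 945 and 677 by the likelihood ratio test and 4, 397 and 1341 by limma-voom. Without a filter, 3 members and 215 genes in all were called under MAT2Ai. Members that overlap no other gene gave 3 calls in the average, 1 within 2 Mb. Same-numbered libraries did not deviate together (mean r = -0.0158 over 30 pairs, and 6 of 20 libraries correlated best with their own number), and the replicate block gave 2 members under MAT2Ai, 5 in the average and 1 within 2 Mb, and 88 and 114 genes in all. Without the libraries labelled SP placebo 1 and 2, 2 members were called under MAT2Ai, 5 in the average and 1 within 2 Mb (126 and 189 genes in all). Without WT MAT2Ai replicates 2, 3 and 4, these were 1 (*Apobr*), 9 and 4 (149 and 461 genes in all), and *Pycard* and *Itpripl2* were not called under MAT2Ai (adjusted p = 0.110 and 0.108 in edgeR). That fit left only replicates 1 and 5 of WT MAT2Ai. With 1 library left out, members called ran from 0 to 1 under placebo (1, *Pycard*, without WT placebo replicate 2), 0 to 13 under MAT2Ai, 2 to 11 in the average and 1 to 5 within 2 Mb. The 13 came with 769 genes in all, without WT MAT2Ai replicate 5. In the average the 11 came with 574, without WT MAT2Ai replicate 4, and the 2 with 20, without SP placebo replicate 4. Members called numbered 0 in every fit with 1 library left out for the difference between treatments and for MAT2Ai within WT or SP. Members at few reads, such as *Aqp8* and *1500002F19Rik*, are limited by depth.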
